A study of Mus musculus with 16 samples.

Results

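Heat shock protein transcripts of the cytosol and the mitochondria were examined in primary mouse hepatocytes given lipid, itaconate or both. The set is 10 named genes, taken by symbol from the 55450 genes of the table, and all 10 were detected in every library and passed the filter on low counts. They are the inducible HSP70 genes Hspa1a and Hspa1b, the constitutive HSP70 gene Hspa8, the HSP110 gene Hsph1, the J-domain gene Dnajb1, the HSP90 genes Hsp90aa1 and Hsp90ab1, the small heat shock protein gene Hspb1, and the mitochondrial chaperonin genes Hspd1 and Hspe1. The hepatocytes came from livers of wild-type C57BL/6J male mice, isolated by enzymatic perfusion and low-speed centrifugation, and were kept overnight in serum-containing medium with insulin, transferrin and selenium. They were left untreated, or received 10 mM sodium itaconate, a chemically defined lipid mixture (arachidonic, linoleic, myristic, oleic, palmitic and stearic acids with cholesterol) at a 10-fold dilution, or both agents. Each of the 4 groups had 4 bulk RNA-seq libraries, labelled A to D, and each letter held 1 library of every treatment. The sources used here do not say whether a letter is a mouse, a day or a plate, so p-values measure the spread between these libraries, which may be technical.

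Molecular chaperones bind unfolded protein and help it to fold, to stay soluble or to be degraded. HSP70 proteins are loaded with clients by J-domain proteins, release them with the help of nucleotide exchange factors such as HSP110, and pass some of them on to HSP90, while small heat shock proteins hold unfolded protein without using ATP. In the mitochondrial matrix, the barrel formed by HSP60 (Hspd1) folds imported proteins under a lid of HSP10 (Hspe1). The inducible members are classic targets of the transcription factor HSF1, which binds heat shock elements, inverted repeats of the unit GAA, and which is set free when unfolded protein occupies the chaperones that hold it back. Hspa8 and Hsp90ab1 are the forms that cells make without stress.

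Library totals lay between 22346049 and 35512004 expected counts (median 27719372), and the 10 genes together took 0.717 to 0.993% of them. Levels are CPM (counts scaled to library size by TMM), shown as mean ± SD with n = 4 per group, and changes are log2 fold changes ± SE from edgeR's quasi-likelihood test, called at an adjusted p under 0.05 over 11675 genes. Within groups, lipid + itaconate replicate B stood apart: it differed from A, C and D of its group by 128, 147 and 106 times the counting noise per gene (chi-square), against 64.5 at most for any other pair of the same group. The 8 hepatocyte markers summed to 32887 to 57561 CPM per library, and stellate and fibroblast markers to 0.609 to 2.07 CPM. In bulk RNA, fewer cells of a type and less RNA per cell cannot be told apart.

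Per kilobase of merged exon, the untreated hepatocytes expressed these genes at very different levels. Hspa8 stood at 808 ± 54.3 CPM per kb and ranked 58th of 15330 protein-coding genes with any count, followed by Hsp90ab1 at 708 ± 29.6. Hspb1 (297 ± 48.7), Hsp90aa1 (285 ± 32.8) and Hspd1 (256 ± 21.7) came next with overlapping spreads. Hspe1 followed at 98.1 ± 9.80 CPM per kb. Hsph1 (35.4 ± 5.55), Hspa1b (30.0 ± 5.99) and Dnajb1 (26.9 ± 1.69) formed a lower group whose spreads also overlapped. Hspa1a was the lowest at 5.61 ± 2.71 CPM per kb, ranked 5844th.

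**Figure D1:**
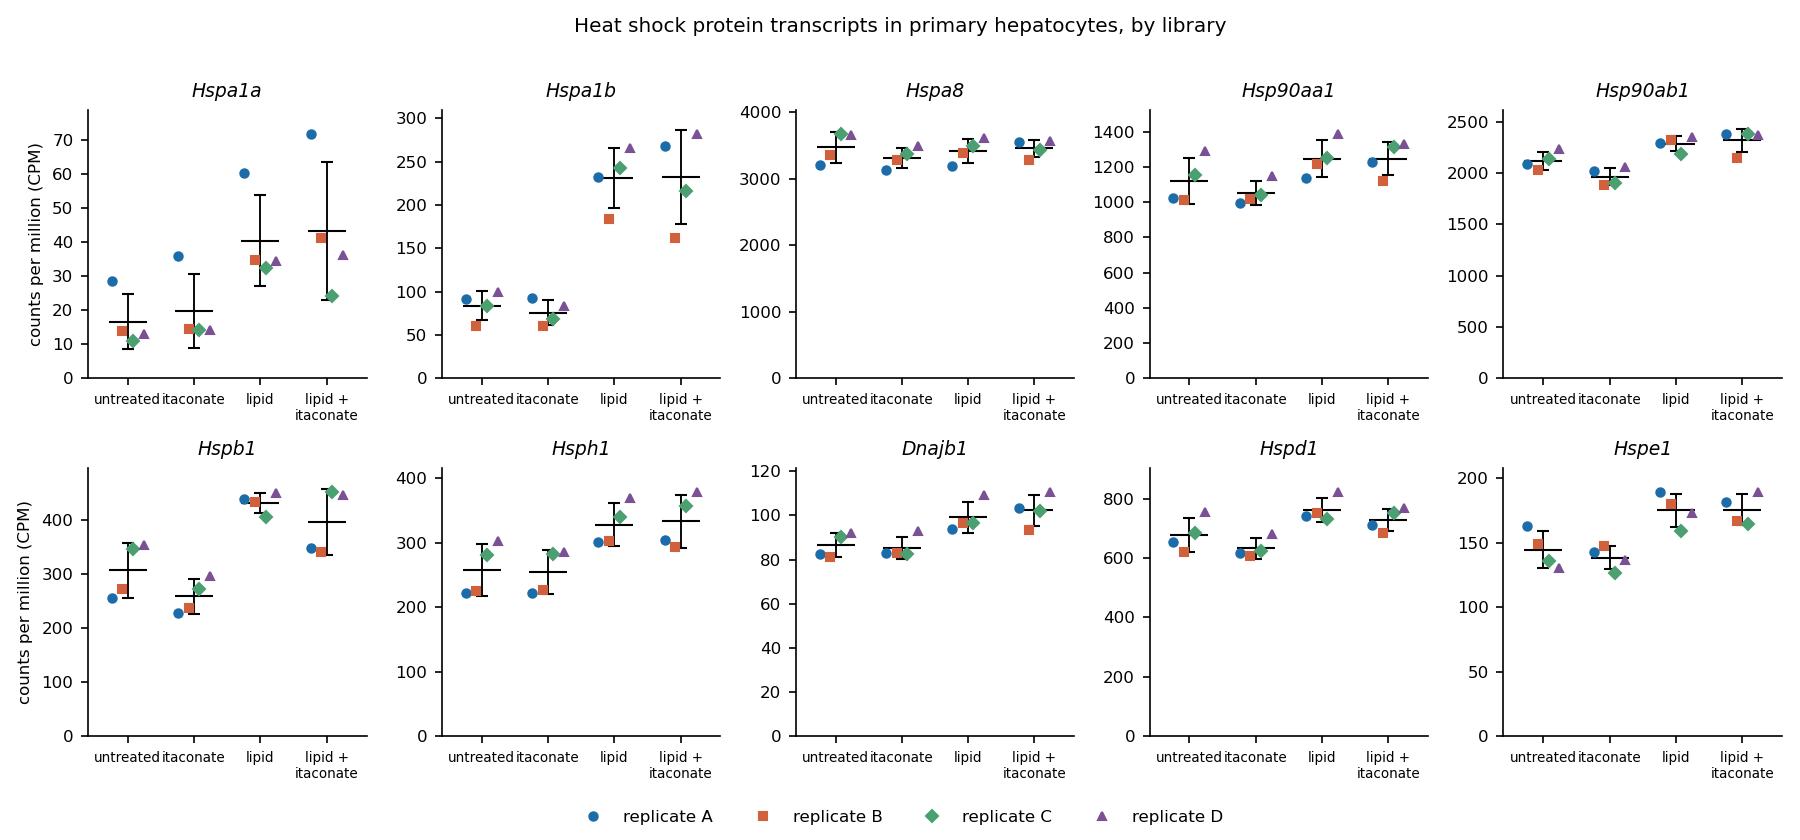
Level of each of the 10 genes in CPM (vertical axes start at 0) in the 16 libraries, by treatment. Symbols and colours mark the replicate letters, and bars give the mean ± SD of 4 libraries. The lipid and lipid + itaconate libraries of Hspa1b lie between 162 and 282 CPM and those without lipid between 60.1 and 100.1, whereas Hspa8 stays between 3134 and 3671 in all 16.

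Hspa1a and Hspa1b encode nearly the same protein, the HSP70 that stressed cells make. Both are single-exon genes on the minus strand of chromosome 17 (mm10), Hspa1a at chr17:34969190-34972156 and Hspa1b at chr17:34956436-34959238. Their stretches just before the transcription start are almost one sequence: 129 of the 130 bases matched, and 296 of 300 in the window from 250 bases before to 50 after the start. These stretches are shown (RefSeq, GRCm38.p6, 5′ to 3′ on each gene's own strand) with those of Hspb1 and Hspe1, because the 3 members that rose most with lipid can be compared there for heat shock elements with the bases that Hspe1 shares with Hspd1. Capitals mark matches to an element of 2 units, GAANNTTC or TTCNNGAA, searched on both strands, and neighbouring matches that overlap run together.
Hspa1a, chr17:34972157-34972286, minus strand: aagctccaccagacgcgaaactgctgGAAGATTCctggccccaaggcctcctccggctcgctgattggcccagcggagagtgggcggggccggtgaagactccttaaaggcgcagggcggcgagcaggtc
Hspa1b, chr17:34959239-34959368, minus strand: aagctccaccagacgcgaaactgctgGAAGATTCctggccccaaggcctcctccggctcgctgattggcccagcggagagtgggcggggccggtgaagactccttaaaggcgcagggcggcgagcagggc
Hspb1, chr5:135887789-135887918, plus strand: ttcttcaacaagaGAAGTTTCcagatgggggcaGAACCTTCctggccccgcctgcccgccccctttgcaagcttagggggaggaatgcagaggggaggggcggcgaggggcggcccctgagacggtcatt
Hspe1, chr1:55088053-55088082, plus strand: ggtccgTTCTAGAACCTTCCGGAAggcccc

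Hspa1a and Hspa1b each had 1 such match, 97 to 104 bases before the start, and Hspb1 had 2, the nearer of them 90 to 97 bases before it. The capitals of Hspe1 lie 72 to 89 bases before the RefSeq start and are 3 overlapping matches, which make up the stricter element of 3 units (GAANNTTCNNGAA or TTCNNGAANNTTC) in both of its phases. Hspd1 and Hspe1 stand head to head on chromosome 1, so the same bases lie before one of the 2 RefSeq starts of Hspd1, and they fall within a first exon of that gene in GENCODE. RefSeq windows were matched for 7 of the 10 genes. A match of 2 units was found in 6 of these 7 genes, all but Dnajb1, against 17.0% of 27025 genes. A match of 3 units was found in Hspd1, Hspe1 and Hsph1, the last within the transcribed bases after the start, against 0.662% of all genes. A match describes letters in a window and shows no binding.

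Hspa1b stood at 91.5, 61.0, 83.5 and 100.1 CPM in untreated libraries A to D, and at 92.5, 60.1, 68.3 and 83.1 in the itaconate libraries. With lipid it stood at 232.7, 184.5, 242.5 and 265.5 CPM, and with lipid and itaconate at 268.4, 162.5, 216.2 and 281.9. All 8 libraries with lipid were thus higher than all 8 without, and replicate B was the lowest of every group. Lipid raised Hspa1b by 1.47 ± 0.07 on the log2 scale (2.78-fold, 95% interval 2.53 to 3.05, adjusted p = 8.95e-10), the 30th largest rise among 11675 genes. In the presence of itaconate, lipid raised it by 1.60 ± 0.07 (3.03-fold, adjusted p = 6.66e-10), the 16th largest.

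Hspa1a, the weaker of the pair, stood at 28.6, 14.0, 11.1 and 12.9 CPM in untreated libraries A to D and at 36.0, 14.6, 14.2 and 14.1 with itaconate. It reached 60.2, 34.6, 32.3 and 34.4 CPM with lipid and 71.6, 41.3, 24.2 and 36.1 with both agents. Replicate A was the highest library of every group, so that itaconate replicate A lay above lipid + itaconate replicate C, although the 4 letters each rose with lipid. The rise was 1.33 ± 0.11 on the log2 scale without itaconate (2.52-fold, adjusted p = 1.51e-07) and 1.15 ± 0.10 with it (2.22-fold, adjusted p = 8.00e-07).

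The division of reads between these genes is uncertain. Of the windows of 50 bases in the Hspa1a transcript, 58.8% also occur in Hspa1b, and RSEM shares out reads that fit both by estimate. Exons of Hspa1a also share 564 bases with Gm20481 on the opposite strand, and the strand setting of the counting is not given in the sources used here. The sum of both genes does not depend on that division between them. It was 101 ± 20.2 CPM in untreated, 95.7 ± 23.8 in itaconate, 272 ± 36.6 in lipid and 276 ± 64.2 in lipid + itaconate hepatocytes. Lipid raised it by 1.45 ± 0.07 (2.73-fold, adjusted p = 1.27e-09) without itaconate and by 1.52 ± 0.07 (2.88-fold, adjusted p = 1.17e-09) with it. The share assigned to Hspa1a varied with the letter: 20.6 to 28.0% in replicate A, 15.8 to 20.2% in B, 10.1 to 17.2% in C and 11.3 to 14.5% in D over the 4 treatments. The range of C overlapped those of B and D. Itaconate libraries had a higher share than untreated ones in every letter. The values were 28.0 against 23.8% in A and 19.5 against 18.7% in B. In C they were 17.2 against 11.7%, and in D 14.5 against 11.4%. With both agents against lipid alone, the share was higher in A and B and lower in C and D.

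**Figure D2:**
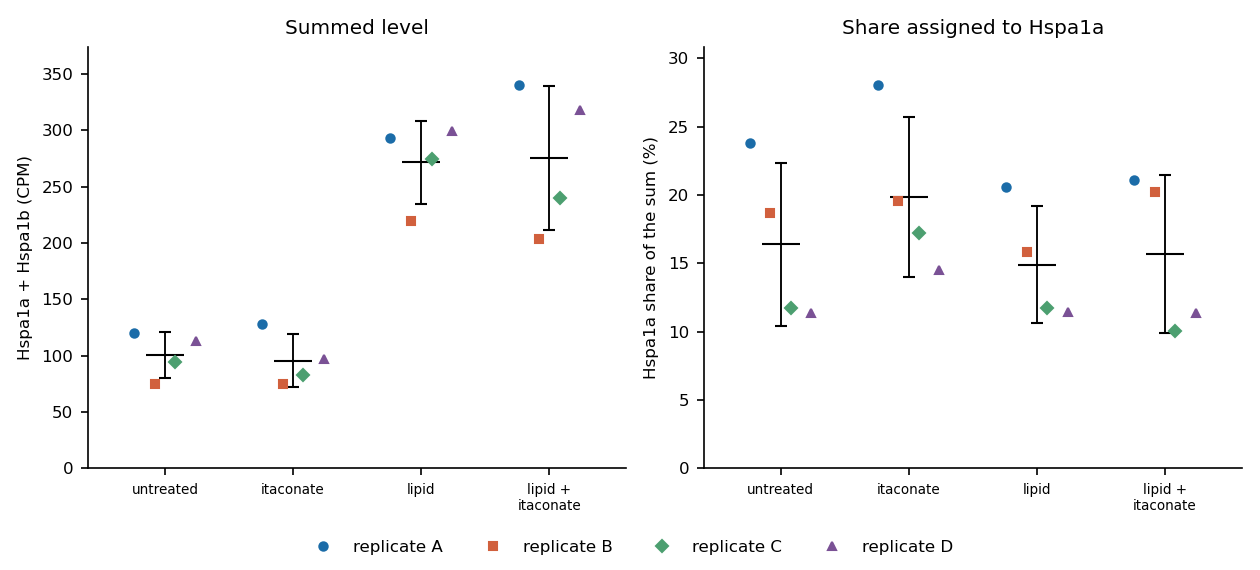
Left, summed CPM of Hspa1a and Hspa1b in each library, and right, the share of that sum assigned to Hspa1a in percent, by treatment, with replicate letters as symbols and mean ± SD bars. The sum lies between 74.7 and 129 CPM without lipid and between 204 and 340 with it, and the share is highest in replicate A of every treatment.

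Hspa8 encodes the constitutive HSP70, which serves everyday folding and clathrin uncoating (chr9:40800984-40810087, plus strand). It stood at 3201, 3356, 3671 and 3665 CPM in untreated libraries A to D and at 3192, 3394, 3489 and 3616 with lipid, and the groups overlapped. Neither lipid comparison passed the test, at −0.02 ± 0.05 (fold 0.986, 95% interval 0.925 to 1.05, adjusted p = 0.744) without itaconate and 0.06 ± 0.05 (fold 1.04, 0.980 to 1.11, adjusted p = 0.292) with it. The small nucleolar RNA genes Snord14c, Snord14d and Snord14e, lie in this gene on the same strand.

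Hsph1 encodes HSP110, a nucleotide exchange factor of HSP70 (chr5:149614287-149636376, minus strand). It stood at 222, 225, 280.1 and 303 CPM in untreated libraries A to D and at 301, 302, 340.1 and 369 with lipid, with untreated replicate D just above lipid replicates A and B. It rose by 0.36 ± 0.04 with lipid (1.28-fold, adjusted p = 4.04e-06) and by 0.39 ± 0.04 with lipid in the presence of itaconate (1.31-fold, adjusted p = 2.01e-06). Replicates A and B lay below C and D in all 4 treatments.

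Dnajb1 encodes HSP40, the J-domain partner of inducible HSP70 (chr8:83608193-83612653, plus strand). It stood at 82.5, 80.9, 90.0 and 91.9 CPM in untreated and 93.6, 96.7, 96.5 and 109 in lipid libraries A to D, without overlap. The rises were small against those of Hspa1a and Hspa1b: 0.20 ± 0.04 with lipid (1.15-fold, adjusted p = 0.00122) and 0.26 ± 0.04 with lipid in the presence of itaconate (1.20-fold, adjusted p = 1.21e-04).

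The HSP90 proteins mature kinases and nuclear receptors. Hsp90aa1, the inducible form (chr12:110690605-110702728, minus strand), stood at 1119 ± 129 CPM in untreated and 1246 ± 105 in lipid hepatocytes and rose by 0.16 ± 0.05 (1.12-fold, adjusted p = 0.0132). Hsp90ab1, the constitutive form (chr17:45567775-45573271, minus strand), stood at 2122 ± 88.6 and 2288 ± 74.2 CPM, a difference of 0.11 ± 0.05 (1.08-fold, adjusted p = 0.0581) that missed the threshold but passed it in 5 of 23 alternatives. Between itaconate and lipid + itaconate hepatocytes, both rose, Hsp90aa1 by 0.25 ± 0.05 and Hsp90ab1 by 0.24 ± 0.05 (adjusted p = 6.64e-04 and 5.86e-04). The ratio of their counts was 0.526 ± 0.0390 in untreated, 0.534 ± 0.0277 in itaconate, 0.545 ± 0.0436 in lipid and 0.537 ± 0.0216 in lipid + itaconate hepatocytes. No difference in this ratio passed a two-sided exact permutation test (adjusted p = 0.857 in all 4 comparisons, smallest unadjusted p possible 0.0286), so a difference between the paralogs was not shown. Paired by letter, the ratio was higher with lipid than without in all 4 letters, by 0.05 on the log2 scale, at the smallest p that 4 pairs allow (exact sign-flip permutation, p = 0.125, adjusted p = 0.333).

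Hspb1 encodes HSP25, the small heat shock protein that holds unfolded clients and binds actin (chr5:135887919-135889563, plus strand). It stood at 256, 271, 345 and 354 CPM in untreated, 228, 238, 272 and 297 in itaconate, 438, 433, 405 and 449 in lipid and 347, 341, 451 and 446 in lipid + itaconate libraries A to D. The lipid libraries were all above the untreated ones, and the lipid + itaconate libraries all above those with itaconate alone. Lipid raised Hspb1 by 0.51 ± 0.07 (1.43-fold, adjusted p = 4.76e-05), and by 0.61 ± 0.07 (1.53-fold, adjusted p = 1.03e-05) in the presence of itaconate. It was the third largest rise of the set in both comparisons.

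Hspd1 (chr1:55077835-55088243, minus strand) and Hspe1 (chr1:55088132-55091307, plus strand) share 112 exon bases at their opposed starts. Hspd1 stood at 653, 619, 684 and 754 CPM in untreated and 742, 751, 732 and 822 in lipid libraries A to D, and untreated replicate D lay above 3 of the lipid libraries. It rose by 0.17 ± 0.04 with lipid (1.13-fold, adjusted p = 0.00278) and by 0.20 ± 0.04 in the presence of itaconate (1.15-fold, adjusted p = 8.59e-04). Hspe1 stood at 163, 149, 136 and 131 CPM in untreated and 189, 179.8, 159 and 173 in lipid libraries, and rose by 0.28 ± 0.05 (1.21-fold, adjusted p = 5.66e-04) and 0.35 ± 0.05 (1.27-fold, adjusted p = 1.02e-04). The ratio of Hspd1 to Hspe1 counts was 4.74 ± 0.819 in untreated, 4.59 ± 0.432 in itaconate, 4.36 ± 0.382 in lipid and 4.16 ± 0.282 in lipid + itaconate hepatocytes, and no difference among the 4 comparisons passed the exact permutation test (adjusted p = 0.857). Paired by letter, the ratio was lower in all 4 letters in lipid + itaconate hepatocytes than with lipid alone or itaconate alone (log2 differences −0.07 and −0.14, exact sign-flip permutation p = 0.125 for both, the smallest possible, adjusted p = 0.333).

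Over the set, lipid alone raised 8 of 10 genes and lowered 0, at a median log2 fold change of 0.24 against 0.00 over all genes tested. Of all 11675 genes, 47.5% were called in this comparison and 23.8% were called higher. The rise reached 1.5-fold in Hspa1a and Hspa1b, and in 5.4% of all genes. The 4 lipid libraries lay wholly above the 4 untreated ones for 4 of the 10 (Hspa1a, Hspa1b, Hspb1 and Dnajb1), as they did for 16.6% of all genes. Of the 8 calls, 2 rested on the model. Without the replicate letter in it, Hsp90aa1 and Hspd1 no longer passed (adjusted p = 0.171 and 0.0552) and 6 genes were called, and Hsp90aa1 also failed without lipid replicate B. Calls over all genes fell as well without the letter, from 5546 to 4149 of 11675.

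Lipid in the presence of itaconate raised 9 of the 10, all but Hspa8, at a median of 0.30 against 0.00 over all genes. Here 47% of all genes were called and 23.5% were called higher. Hspa1a, Hspa1b and Hspb1 passed 1.5-fold, as did 4.82% of all genes, and 7 of the 10 genes had no overlap between the groups (16.6% of all genes). The count was 9 in every alternative run, also without lipid + itaconate replicate B, where Hspa1b stood at 1.64 and Hspa1a at 1.07.

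**Figure D3:**
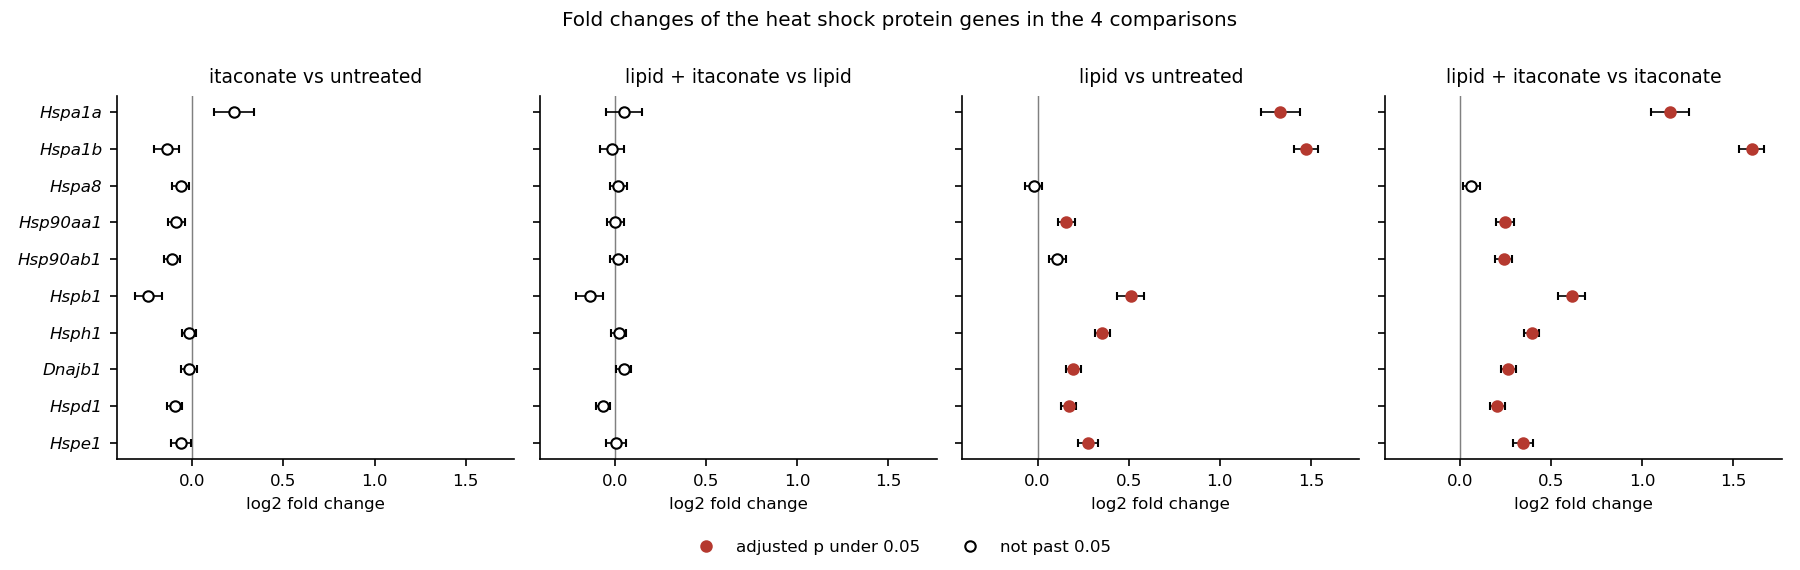
Log2 fold change ± SE of the 10 genes in the 2 comparisons of itaconate (left panels) and the 2 of lipid (right panels). Filled points have an adjusted p under 0.05. The itaconate panels hold 0 filled points and lie between −0.24 and 0.23, while in the lipid panels Hspa1a and Hspa1b lie at 1.15 to 1.60 and the others at 0.61 or less.

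Itaconate alone changed none of the 10 at the threshold in edgeR's test (0 called, 3 at an unadjusted p under 0.05, 1 by DESeq2 and 0 by limma), where 4.91% of all genes were called. The median was −0.08 against 0.00 over all genes. Hspb1 was nearest, at −0.24 ± 0.07 (0.846-fold, 95% interval 0.766 to 0.936, adjusted p = 0.0722), lower in all 4 letters. Its adjusted p ran from 4.72e-04 to 0.400 over the 23 alternatives and passed in 5 of them, among them the fits without lipid replicate C and without lipid + itaconate replicate C. Hspa1a stood at 0.23 ± 0.11 (adjusted p = 0.245), higher in all 4 letters, and Hspa1b at −0.14 ± 0.07 (adjusted p = 0.249). Their sum, which does not depend on how reads are divided between them, stood at −0.08 ± 0.07 (0.947-fold, adjusted p = 0.540).

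Itaconate added to lipid also changed none of the 10 (0 called, 0 at an unadjusted p under 0.05, 0 by DESeq2 and by limma), where 2.58% of all genes were called. The differences ran from −0.14 ± 0.07 for Hspb1 (adjusted p = 0.346) to 0.05 ± 0.10 for Hspa1a (adjusted p = 0.842). For the sum of Hspa1a and Hspa1b the difference was −0.00 ± 0.07 (fold 0.999, adjusted p = 0.994). The interval for Hspa1b alone was 0.905 to 1.08-fold.

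Whether itaconate altered the lipid response was tested as an interaction, for which 0.00857% of all genes were called. None of the 10 was (0 called, also at an unadjusted p under 0.05). Hsp90ab1 came nearest, at 0.13 ± 0.06 (adjusted p = 0.594), so that its call with itaconate and its miss without it are not shown to differ. The 2 lipid comparisons use different libraries, but these come from the same letters and were fitted together, so the comparisons are not independent repeats. Comparisons with a group in common share its libraries, such as the untreated ones for itaconate and for lipid against untreated cells.

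The replicate letter itself moved most of the set. The test of letter called 8 of the 10, all but Hspa8 and Hsp90ab1, and 25.8% of all genes. Hspa1a differed most: replicate A averaged 0.82 above its group means on the log2 scale and replicate C at −0.45 (adjusted p = 1.28e-06). Its level depends on the uncertain division of reads with Hspa1b. For the sum of both genes, replicate A stood at 120 CPM in untreated, 129 in itaconate, 293 in lipid and 340 in lipid + itaconate hepatocytes. The group means of the sum were 101, 95.7, 272 and 276 CPM in that order. Replicate B stood at 75.1, 74.7, 219 and 204 CPM, C at 94.6, 82.5, 275 and 240, and D at 113, 97.1, 300 and 318. Hsph1 ran from −0.16 in replicates A and B to 0.20 in D, and Hspb1 from −0.14 in A to 0.17 in D. Hspe1 went the other way, highest in A (0.10) and lowest in C (−0.11).

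Across the 16 libraries, levels of Hsp90aa1, Hsph1, Dnajb1 and Hspd1 moved closely together (log2 CPM, Pearson r = 0.945 for Hsp90aa1 with Hspd1 and 0.927 with Dnajb1). They were not set apart from other members. Against these genes, Hspb1 ran from 0.862 with Dnajb1 to 0.932 with Hspd1. Hsp90ab1 ran from 0.773 with Hsph1 to 0.904 with Hspd1, and Hspa1b from 0.772 with Hsp90aa1 to 0.890 with Dnajb1. Hspa1a ranged from −0.27 with Hspa8 and 0.254 with Hsp90aa1 to 0.786 with Hspa1b and 0.841 with Hspe1. Outside the set, the patterns most like that of Dnajb1 among genes averaging 5 CPM or more were those of Cacybp (r = 0.938), Stip1 (0.931), Hspa4l (0.925), Gmps (0.912) and Tmem263 (0.910). Those most like Hspd1 were Plod1 (0.944), Usp8 (0.939), Mlec (0.928), Itgb5 (0.928) and Ppp3ca (0.924). These values are descriptions over libraries that share treatments, letters and scaling.

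Of 93 further genes of the chaperone network, 84 were tested. Lipid alone raised 28 and lowered 16 of them, at a median of 0.07, and lipid in the presence of itaconate raised 31 and lowered 13, also at a median of 0.07. The network was thus called at 44 of 84 in both, against 47.5% and 47% of all genes. Itaconate alone raised 1, Hsf2 (0.20 ± 0.05), and lowered 0, against 4.91% of all genes called. The count fell to 0 without the letter in the model and reached 4 without lipid + itaconate replicate C. Calls over all genes went from 573 to 23 and 1047 in these fits. Itaconate on lipid changed 0 (3 by DESeq2), against 2.58% of all genes, and the interaction called 0, against 0.00857%.

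Of 17 HSP90 co-chaperone genes, 8 rose with lipid and 0 fell at the threshold, against 23.8% of all genes called higher and 47.5% called either way, and 9 rose and 0 fell in the presence of itaconate (23.5% and 47% of all genes). The log2 fold change was above 0 in 13 and 14 of the 17, and the list medians were 0.13 and 0.16. In that order of comparisons, Unc45a, a myosin chaperone that binds HSP90, rose by 0.29 ± 0.04 and 0.38 ± 0.04. Ahsa2, related to the activator of the HSP90 ATPase, rose by 0.27 ± 0.06 and 0.45 ± 0.06. Cacybp, a ubiquitin ligase adaptor with a co-chaperone fold, rose by 0.23 ± 0.04 and 0.34 ± 0.04. Among other HSP70 and HSP110 genes 3 of 4 rose in both, with Hspa4l, an HSP110, at 0.43 ± 0.05 and 0.40 ± 0.05.

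Of 16 J-domain genes, 4 were called higher and 5 lower with lipid, and 5 higher and 4 lower with lipid in the presence of itaconate, against the same 47.5% and 47% of all genes called either way. Dnajb2, a co-chaperone that sends clients to the proteasome, rose by 0.51 ± 0.05 and 0.49 ± 0.05, and Dnajb5 fell by 0.89 and 0.72 on the log2 scale. Of 9 nucleotide exchange and HSP70 cofactor genes, Bag2, an inhibitor of the ubiquitin ligase CHIP, rose by 0.57 ± 0.09 and 0.53 ± 0.09, and Bag1 fell by 0.20 and 0.14. Bag6 and Stub1, which encodes CHIP, fell by 0.14 and 0.13 with lipid alone.

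Among 14 genes of the cytosolic chaperonin CCT and prefoldin, 2 rose and 3 fell with lipid, and 4 rose and 2 fell in the presence of itaconate (47.5% and 47% of all genes called either way). The prefoldin subunit gene Vbp1 fell in both, by 0.33 and 0.25, and Pfdn4 fell by 0.39 in the latter. With lipid alone Pfdn4 stood at −0.15 ± 0.08 (adjusted p = 0.123), with all 4 lipid libraries below the untreated ones, and the interaction did not pass (−0.24 ± 0.11, adjusted p = 0.576). Of 4 other small heat shock protein genes, Hspb11, an intraflagellar transport protein despite its name, rose by 0.55 ± 0.10 and 0.77 ± 0.10. Hspb8, a partner of BAG3, rose by 0.24 ± 0.05 with lipid alone, and Hspb6 fell by 0.22 and 0.17. For Hspb8 the difference between the lipid responses was not shown (interaction −0.17 ± 0.07, adjusted p = 0.536).

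Of 16 further mitochondrial chaperone and protease genes, 7 rose and 4 fell with lipid, and 7 rose and 5 fell in the presence of itaconate, where 47.5% and 47% of all genes were called either way. Hspa9, the matrix HSP70 mortalin, fell by 0.21 and 0.23 on the log2 scale (adjusted p = 0.00150 and 8.64e-04). The protease genes Spg7 and Lonp1 fell as well, Spg7 by 0.45 and 0.48 and Lonp1 by 0.26 and 0.25. Htra2, a protease of the intermembrane space, rose by 0.48 ± 0.09 and 0.39 ± 0.09, and Hscb, a J-domain protein of iron-sulfur cluster assembly at a mean of 3.33 CPM, rose by 1.20 ± 0.15 and 1.12 ± 0.15.

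Of the heat shock factors, 4 of 5 were tested. Hsf1, the master regulator of the heat shock response, did not pass in any comparison. It stood at 0.05 ± 0.05 with itaconate (adjusted p = 0.615) and 0.09 ± 0.05 with itaconate added to lipid (adjusted p = 0.353). With lipid it stood at −0.01 ± 0.05 (adjusted p = 0.910), and with lipid in the presence of itaconate at 0.04 ± 0.05 (adjusted p = 0.563). Hsf2, a related factor, rose by 0.39 ± 0.05 and 0.23 ± 0.05 in the lipid comparisons. HSF1 is controlled largely as a protein, which was not measured.

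**Figure D4:**
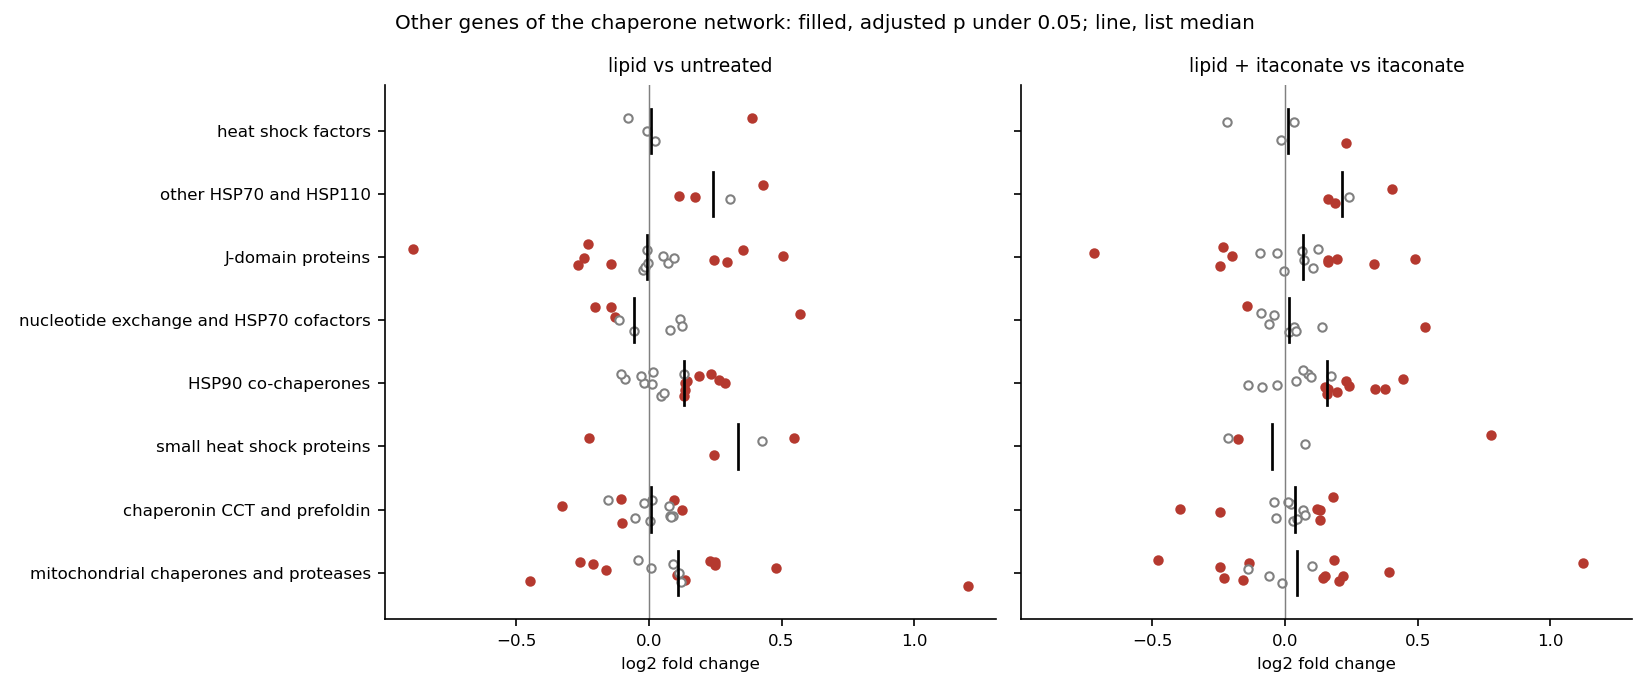
Log2 fold change of the 84 tested network genes in the 2 lipid comparisons, by list. Filled points have an adjusted p under 0.05 and the vertical line is the list's median. The HSP90 co-chaperones hold no filled point below 0, the J-domain and mitochondrial lists hold filled points on both sides, and Hscb is the point at 1.20 and 1.12.

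Markers of liver cell types were compared in the same way. Lipid called 47.5% of all genes either way without itaconate and 47% in its presence. Of 9 macrophage markers tested, 5 were lower and 1, Cd68, higher with lipid alone, and 8 lower and 1 higher in the presence of itaconate (medians −0.44 and −0.93). Cd68 averaged 218 CPM over all libraries, and the other tested macrophage markers just 1.78 to 8.65 CPM, near the low-count filter. Their summed level, most of it Cd68, was 177 to 290 CPM in untreated and 231 to 329 in lipid libraries. Of the cholangiocyte list, Sox9 and Spp1 averaged 112 and 530 CPM and were lower in both comparisons. Krt19, Krt7 and Epcam averaged under 1 CPM and Cftr was at 0 in all libraries. Which cells held the Sox9 and Spp1 RNA was not tested. The list summed to 600.3 to 1171 CPM in untreated and 336 to 609 in lipid libraries. Of 8 hepatocyte markers, 3 were lower with lipid and 5 in the presence of itaconate (medians −0.20 and −0.21). Of 6 endothelial markers tested, 1 was higher and 1 lower with lipid, at sums of 14.8 to 26.3 and 16.4 to 27.7 CPM. The part of these markers' cells in the heat shock gene differences was not tested.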

How the data were processed

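Per the methods and the submitters' processing notes, the authors trimmed reads from stranded mRNA libraries with cutadapt 1.18, aligned them to mm10 with STAR 2.7.0f and quantified GENCODE genes with RSEM 1.3.1. The deposited values are gene-level expected counts for 16 libraries, with no normalization. Reads that fit several genes are divided among them by estimate, and 5.41% of the values were not whole. Rounded counts were taken into edgeR 4.0.16 (R 4.3.3). Genes averaging 1 CPM or more were kept (11675 of 55450), scaled by TMM, and fitted by quasi-likelihood with treatment and replicate letter as terms, followed by Benjamini-Hochberg adjustment over all genes tested and a threshold of 0.05. The 5 contrasts were itaconate and lipid each against untreated, both agents against lipid and against itaconate, and the interaction. Each SE was derived from the F statistic of the test. The 95% intervals were built from the SE with the normal distribution, so they are somewhat narrower than the test itself would give. Log2 CPM used a prior count of 0.5. Count ratios were compared by exact permutation over libraries.

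The letters come from the sample labels. Deviations from group means were correlated for the 24 same-letter pairs across groups (0.131 to 0.543, median 0.326), against −0.486 to 0.243 for 72 other pairs. Every same-letter value was over 0.1, so the letters were taken to pair the libraries and stayed in the model. No library was a duplicate among 24 pairs within groups (10.0 to 147 times the counting noise).

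All 10 genes are named, with up to 4 called genes per network list and comparison by size of change, Hsf1, Hspa9, and the 5 genes most like Dnajb1 and Hspd1. The genes and lists were chosen with earlier results of these data known, and the lists come from general knowledge of chaperones, not a database. Scripts were tested on simulated data. Gene positions are from GENCODE M21 (GRCm38), in which all gene identifiers were found, and sequences from RefSeq. Alternatives were no letter in the model, RLE scaling, the filterByExpr filter, no filter, a fit of just the 8 libraries compared, DESeq2 1.42.0, limma 3.58.1 (limma-trend), and each library left out in turn. At these depths the lowest member, Hspa1a, rests on 303 to 2516 counts per library.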

Additional observations from a re-analysis of the deposited data

Results flagged for a closer look

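In all, 5 values lay apart from the other 3 libraries of their group by Dixon's ratio, among 52 groups of 4 tested, where chance flags about 1 group in 20. For Hspa1a, replicate A was the high library in 3 groups, at 28.6 CPM in untreated (others 11.1 to 14.0), 36.0 in itaconate (14.1 to 14.6) and 60.2 in lipid hepatocytes (32.3 to 34.6). Replicate A was also the highest in the lipid + itaconate group, at 71.6 CPM, without passing the ratio. The sum of Hspa1a and Hspa1b was tested in the same way, and none of its groups was flagged. Hsp90ab1 was low in lipid + itaconate replicate B, at 2146 CPM (others 2374 to 2380), the library that stood apart in its group. Dnajb1 was high in itaconate replicate D, at 92.7 CPM (others 82.4 to 82.9). The cause was not tested.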

How the results depend on the processing

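With lipid, 8 genes of the set were called in the model with the replicate letter, 6 with no replicate block, 9 by DESeq2 and 7 to 9 without 1 library. In the presence of itaconate 9 were called in every fit run, and no fold change that passed the threshold changed direction. With itaconate alone, 0 genes of the set became 1 by DESeq2, 2 with no filter, 3 in a fit of only the 8 libraries of the comparison, and 0 to 1 without 1 library. Those were Hspb1 in all 3, with Hspa1a in the latter 2 and Hsp90ab1 in the last. The sum of Hspa1a and Hspa1b was not fitted in those 3 settings. The replicate letter called 8, and 6 to 8 without 1 library. Network genes called with lipid numbered 44, against 29 with no replicate block and 34 to 47 without 1 library. In the presence of itaconate, 44 became 35 with no replicate block and 38 to 45 without 1 library. Calls over all genes with lipid numbered 5546, against 4149 with no replicate block and 4717 to 6003 without 1 library. For lipid in the presence of itaconate they numbered 5483, against 3990 with no replicate block and 4530 to 5559 without 1 library. With itaconate alone, 1 network gene became 0 with no replicate block, 2 with no filter, 7 in the 8-library fit, and 0 to 4 without 1 library. For itaconate on lipid, 0 became 3 by DESeq2 and 0 to 2 without 1 library. Over all genes, itaconate alone called 573, against 23 with no replicate block, 1859 in the 8-library fit and 149 (without itaconate replicate C) to 1047 (without lipid + itaconate replicate C) with 1 library left out. Itaconate on lipid called 301, against 9 with no replicate block, 725 with no filter and 59 when replicate A of the group with both agents was left out and 889 when its replicate C was. The interaction called 1 gene, against 231 with no filter. The sum of Hspa1a and Hspa1b kept its calls in all fits run, and its rises with lipid kept their direction. No count ratio passed the exact permutation test with or without the replicate block. The cause of these differences was not tested. With 4 libraries a group, log2 changes carry a SE of 0.04 to 0.11 for these genes in the 4 comparisons and 0.06 to 0.15 in the interaction, which limits the shifts that can be seen, and the ratio tests could not go below a p of 0.0286, or 0.125 when paired by letter.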
